A study of Mus musculus with 3 samples.

Results

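A set of 10 mouse genes for long non-coding RNAs was followed in fibroblasts. They were chosen by symbol as the nuclear-retained RNAs Malat1 and Neat1, the snoRNA hosts Gas5, Snhg1, Snhg3 and Snhg12, the microRNA host Mir17hg, the Hox-linked Hotair, and Tug1 and Pvt1. Of these 10 genes, 9 were matched to a row by their Ensembl identifier, out of 46603 genes counted. Snhg1 matched no row and its own level was not analysed here. The RNA came from 3 libraries of polyadenylated RNA of KO-actin cells, which are mouse embryonic fibroblasts (MEFs) that lack endogenous β-actin and express β-actin with a nuclear localisation signal (NLS), given in the labels as the genotype Beta-actin KO-NLS. These lines were made in earlier work, and the age, sex and number of embryos or clones are not given in the sources used here. All 3 libraries belong to this 1 group, no library of wild-type or knockout cells without the NLS construct was analysed here, and so no condition was compared with another. The labels do not say that the replicates were separate cultures, so the p-values below measure only the spread between these libraries, which may be technical.

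The libraries held between 44383636 and 49932446 counts. Actb, the gene targeted in these cells, had 1085 ± 23.2 CPM (the count as a share of the TMM-scaled library total, in millionths; SD, n = 3). Reads of the NLS construct and of the endogenous gene cannot be told apart in that value. Each of the 6 fibroblast markers examined exceeded a floor of 3 counts in all 3 libraries, with a summed level of 13400 to 14396 CPM, although Pdgfra, a receptor of mesenchymal cells, reached only 4.97 CPM. Of the markers of other cells, 2 of 5 epithelial (summed level 38.3 to 40.2 CPM), 1 of 5 blood (10.6 to 12.7 CPM), 5 of 5 neuronal (15.48 to 16.97 CPM) and 2 of 4 endothelial (1.998 to 2.530 CPM) genes passed that floor in every library. Epcam and Ptprc, which define epithelial and blood cells, each had at most 1 count in any library. Other genes of these lists were higher than Pdgfra, with a mean of 37.9 CPM for Krt18 (epithelial), 11.25 for Cd74 (blood) and 10.95 for Tubb3 (neuronal). The low counts of Epcam and Ptprc therefore do not stand for every gene of their lists. Fewer cells that express a gene and less RNA per cell cannot be told apart in such bulk samples.

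Long non-coding RNAs are transcripts without a long open reading frame, and they act in several ways. Malat1 lies in nuclear speckles and the long form of Neat1 is the scaffold of paraspeckles, both of them nuclear bodies, and the stable 3′ ends of both RNAs are known to be made by a triple helix of U-rich stretches with an A-rich tract encoded in the genome rather than by a poly(A) tail. Small nucleolar RNA (snoRNA) hosts are spliced, their introns release snoRNAs that guide modification of ribosomal RNA, and the spliced host RNA of several of them starts with a pyrimidine tract and is degraded in the cytoplasm when translated. Mir17hg is the primary transcript of the miR-17-92 cluster, while Hotair is transcribed from within the HoxC cluster, whose genes record position along the body axis.

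The 3′ tracts of Malat1 and Neat1 are shown because these libraries were made from polyadenylated RNA and both RNAs are known for ends of this other kind. The windows below are the reverse strand of GRCm38 at chr19:5795972-5796091 for Malat1 and chr19:5824708-5824817 for Neat1, near the end of the longest transcript of each gene in GENCODE M21, and capitals mark every stretch of at least 10 bases found in both windows.
Malat1: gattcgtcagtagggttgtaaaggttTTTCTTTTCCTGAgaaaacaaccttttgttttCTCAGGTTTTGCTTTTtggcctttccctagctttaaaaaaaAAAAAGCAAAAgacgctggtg
Neat1: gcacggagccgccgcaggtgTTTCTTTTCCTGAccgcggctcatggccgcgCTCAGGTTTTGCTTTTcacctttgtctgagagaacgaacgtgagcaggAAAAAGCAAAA
The windows shared 3 such stretches with 40 bases in all, in the same order, and the longest had 16 bases. The first and the second stretch are rich in U and the third is the A-rich tract. In Neat1 the tract of 11 bases is the annotated 3′ end of a transcript of 20771 bases. In Malat1 the tract spans 18 bases and ends 292 bases before the annotated end, at base 6691 of 6983. The letters AAAGCAAAA of the tract, searched on the transcript strand, occurred in the last 500 bases of 123 of 12184 long non-coding transcripts of at least 500 bases (1.01%).

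The mature microRNAs inside Mir17hg are shown because they are the products for which this host is known. The sequences are those of RefSeq on GRCm38, and capitals mark the seed, bases 2 to 8.
miR-17-5p: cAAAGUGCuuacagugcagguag
miR-20a-5p: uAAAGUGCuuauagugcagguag
miR-18a-5p: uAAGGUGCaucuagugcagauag
miR-19a-3p: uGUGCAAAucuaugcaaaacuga
miR-19b-3p: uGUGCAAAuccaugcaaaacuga
miR-92a-3p: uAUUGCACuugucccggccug
By shared seed, miR-17-5p and miR-20a-5p form 1 group, miR-19a-3p and miR-19b-3p another, and miR-18a-5p and miR-92a-3p stand alone. The genes of all 6 lie on the host's strand between its annotated ends.

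The level of each member was compared per kilobase of exon (CPM divided by the length of the union of annotated exons in kilobases), because a longer RNA gives more reads. On this scale the mean level fell in the order Malat1, Gas5, Snhg12, Tug1, Neat1, Pvt1, Mir17hg, Snhg3 and Hotair. Malat1 had 43.7 ± 5.35 CPM per kilobase and Hotair 0.0351 ± 0.0219 (SD, n = 3 for these and all other means below). The order was the same in 3 of 3 libraries, and the ranges of neighbouring members did not overlap in 8 of 8 pairs. For each pair the two-sided exact sign-flip permutation test on the log2 ratio within libraries gave p = 0.25, which is the smallest value that 3 libraries allow, and 0.25 after adjustment over the 8 pairs. The pairs were taken from the order of these same levels, so the test gives no independent support for that order. The narrowest step was that from Snhg12 to Tug1, where the ratio of the levels per kilobase was 1.22-fold (1.11 to 1.35 over the libraries), and the widest were those from Mir17hg to Snhg3 (5.67-fold, 3.84 to 11.1) and from Snhg3 to Hotair (5.55-fold, 3.66 to 10.2), which rest on 5 to 9 counts of Snhg3 and 1 to 5 of Hotair in a library. With the median length of a gene's annotated transcripts in place of the union of exons, Snhg12 fell from the third to the fifth place, below Tug1 (25.4 ± 1.65 against 28.2 ± 2.05 CPM per kilobase, overlapping), and without division by length it was also at the fifth place.

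**Figure D1:**
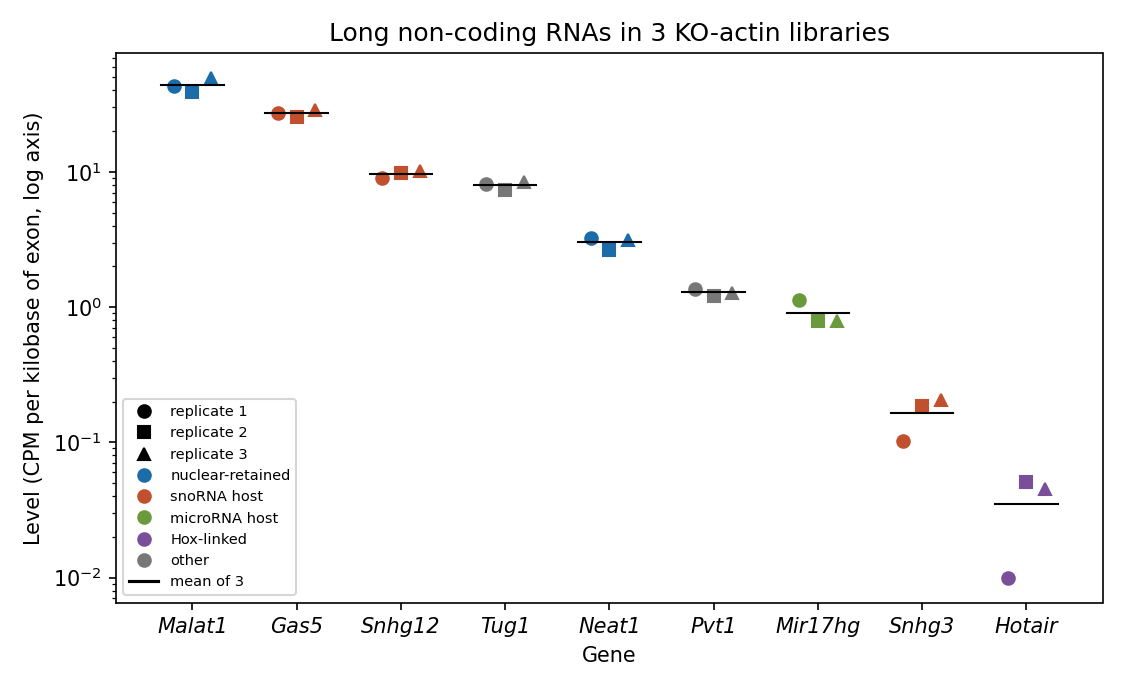
Level of the 9 members in each library, in CPM per kilobase of exon on a log axis, with 1 symbol per replicate, colours for the kind of RNA and a bar for the mean of 3 libraries. Malat1 lies highest at 43.7 CPM per kilobase and Hotair lowest at 0.0351, and no member overlaps its neighbour.

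Malat1, the nuclear speckle RNA (ENSMUSG00000092341, chr19:5795690-5802672 on the reverse strand, 6983 exonic bases), had 14946, 13384 and 15368 counts in replicates 1, 2 and 3. Its level was 299, 271 and 345 CPM, so that replicate 3 was highest, replicate 2 lowest, and the highest exceeded the lowest 1.27-fold. Its mean level of 305 ± 37.4 CPM made up 52.3% ± 1.69 of the summed CPM of the 9 members and 6.77% ± 0.731 of the counts of all annotated long non-coding RNA genes. These genes together took only 0.450% ± 0.00921 of all counts. By mean CPM, Malat1 was the third of 2622 long non-coding RNA genes with a count, behind Cct6a, a gene known for a chaperonin subunit that the annotation release lists as a processed transcript, and AI506816 (462 CPM).

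Neat1, the paraspeckle scaffold, lies beside Malat1 on the same strand (ENSMUSG00000092274, chr19:5824708-5845478, 20771 exonic bases). It had 3372, 2730 and 2896 counts, and its level was 67.5, 55.3 and 65.0 CPM. Replicate 2 was lowest and the other two lay close together. With 62.6 ± 6.48 CPM Neat1 had about the level of 1810058I24Rik, which had 62.5 ± 2.86 CPM and was next below it. Per kilobase of exon, the level of Neat1 was 3.01 ± 0.312 CPM, and the value depends on which of its transcripts is taken as the measure of length. The 4 annotated transcripts have a median length of 2017 bases, and divided by that length the level was 31.0 ± 3.21 CPM per kilobase, which moved Neat1 from the fifth to the third place. The counts are per gene and do not tell the short polyadenylated form from the long one.

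Frmd8, the protein-coding gene 4223 bases from Neat1, was higher per kilobase of exon than Neat1, with 21.5 ± 1.13 against 3.01 ± 0.312 CPM per kilobase. Per kilobase of the median transcript Neat1 had 31.0 ± 3.21, a measure of length not applied to Frmd8. All 11 listed genes for paraspeckle proteins passed the floor in all libraries, with levels from 12.0 (Cpsf6) to 135 (Nono) and a median of 39.6 CPM per kilobase, against a median of 3.64 over the 15950 protein-coding genes with a count. The core paraspeckle proteins Nono and Sfpq had 135 ± 2.27 and 89.2 ± 2.20 CPM per kilobase. The third core member, Pspc1, had 16.4 ± 0.644. Of 6 genes for speckle proteins and Malat1 processing, Srsf2, a splicing factor of speckles, was highest with 96.5 ± 3.95 CPM per kilobase. Mettl16, a methyltransferase that binds the Malat1 triple helix, was lowest of them with 7.30 ± 0.278, and Elac2, the tRNA 3′ nuclease that also trims the small RNA released from the Malat1 end, had 18.2 ± 0.401.

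Tug1, a spliced RNA found in nucleus and cytoplasm (ENSMUSG00000056579, chr11:3639785-3649673, reverse strand), had 3929, 3504 and 3645 counts, or 78.7, 70.9 and 81.8 CPM. Replicate 2 was again lowest. The mean of 77.1 ± 5.61 CPM was above that of Neat1 in CPM as well as per kilobase of exon (7.93 ± 0.576 against 3.01 ± 0.312). Per kilobase of the median transcript the order turned, with 28.2 ± 2.05 for Tug1 against 31.0 ± 3.21 for Neat1 and overlapping ranges. Of the exonic bases of Tug1, 11.6% are shared with another gene on either strand, among them Morc2a on the opposite strand, whose level was 116 ± 4.50 CPM. Whether counting used the strand is not given in the sources used here, and without strand reads of such a pair cannot be told apart.

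Pvt1, a spliced RNA that shares its neighbourhood with the proto-oncogene Myc (ENSMUSG00000097039, chr15:62037986-62378096, forward strand), was much lower. It had 473, 420 and 399 counts, or 9.47, 8.50 and 8.96 CPM, and the libraries lay within 1.11-fold of each other. Myc, a transcription factor of growth whose gene ends 47611 bases before Pvt1, had 147 ± 9.99 CPM. Per kilobase of exon Myc had 54.2 ± 3.68 CPM and Pvt1 1.28 ± 0.0694, and Gsdmc, the nearest protein-coding gene on the other side, was at 0 counts in every library, which allows a level of up to 0.0601 to 0.0673 CPM by a floor of 3 counts in a library.

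Of the snoRNA hosts, Gas5 was the highest (ENSMUSG00000053332, chr1:161034422-161038539, forward strand). It had 5140, 4688 and 4781 counts, or 103, 94.9 and 107 CPM, with replicate 2 lowest. Per kilobase of exon its level was 27.1 ± 1.68 CPM, and Malat1 was 1.61-fold above it (1.54 to 1.73 over the libraries). That ratio was 1.09-fold per kilobase of the longest transcript, where the ranges overlapped, and 3.10-fold per kilobase of the median transcript. Snhg12 (ENSMUSG00000086290, chr4:132308623-132311024, forward strand) had 1077, 1165 and 1093 counts, or 21.6, 23.6 and 24.5 CPM. It was the exception among the higher members, with its lowest level in replicate 1. Its level per kilobase was 9.67 ± 0.630 CPM, and that of Trnau1ap, which acts in selenocysteine incorporation and lies 738 bases away, was 16.9 ± 1.12.

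Snhg3 (ENSMUSG00000085241, chr4:132348014-132353686, reverse strand) was counted at a level near the limit of these libraries. It had 5, 9 and 9 counts, and the pooled level was 0.160 CPM with an exact 95% Poisson interval of 0.101 to 0.240, which covers counting error only. Of its 986 exonic bases, 851 (86.3%) are shared with another gene on either strand, against 1.85% to 19.6% for the other 8 members with a row. Rcc1, the exchange factor of the small GTPase Ran, overlaps Snhg3 on the same strand and had 6300, 6105 and 5594 counts. Of the windows of 50 bases along the longest Snhg3 transcript, 72.0% also occurred in the transcripts of another gene, most of them in Gm17300 on the opposite strand, which had 93, 66 and 62 counts. When divided by the exonic bases that are not shared, the level of Snhg3 was 1.20 ± 0.400 CPM per kilobase, above that of Mir17hg (1.06 ± 0.230) but with overlapping spread. How reads in shared bases were counted is not given in the sources used here, so the low count of Snhg3 is uncertain as a measure of its RNA.

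**Figure D2:**
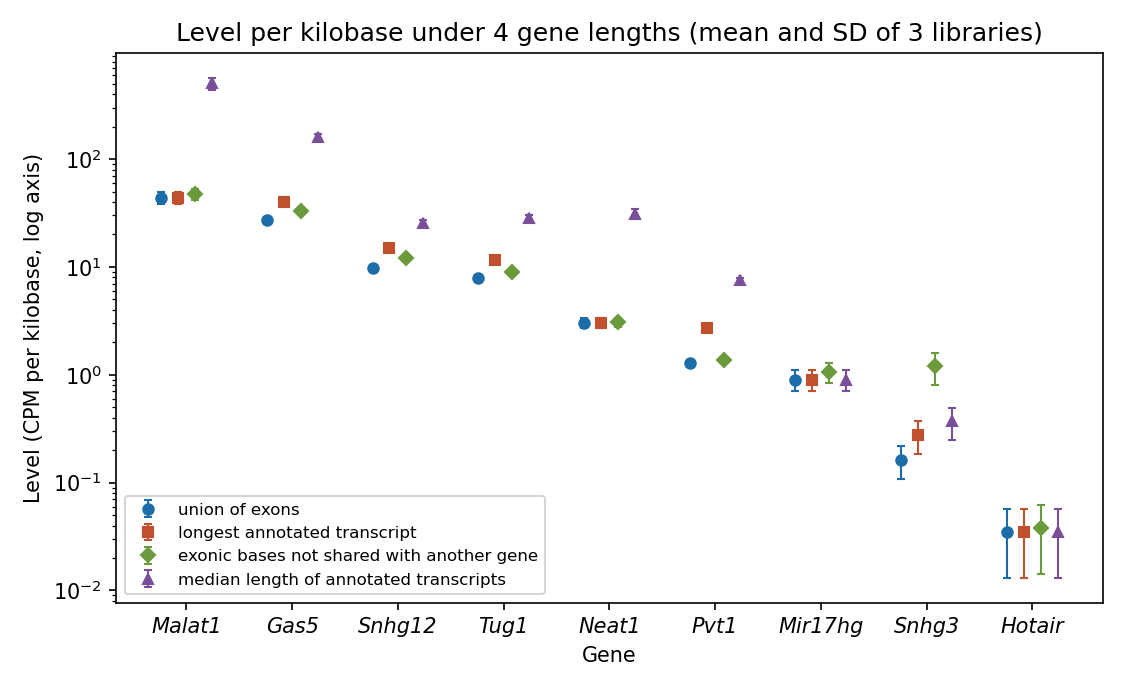
Mean level of the 9 members with the SD of 3 libraries as bars, in CPM per kilobase on a log axis, under 4 definitions of gene length. With the median transcript Neat1 rises from 3.01 to 31.0 CPM per kilobase, and with unshared bases Snhg3 rises from 0.164 to 1.20.

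The spliced hosts and the snoRNAs they contain were then set side by side. The 10 snoRNA rows inside Gas5, the 5 inside Snhg12 and the 2 inside Snhg3 were at 0 counts in every library. The 8 snoRNA rows inside Snhg1 (chr19:8723475-8726443, forward strand), whose host had no matched row, were by contrast all above the floor of 3 counts in every library. Snord22, a box C/D snoRNA and the highest of the 8, had 332, 244 and 280 counts, and the counts of all 8 lay between 62 and 332. Their sum was 1423, 1061 and 1203 counts, or 25.7 ± 3.70 CPM, and replicate 2 had the lowest sum. All 8 lie wholly within annotated exons of Snhg1, including retained introns, so reads of a host transcript and of the snoRNA itself cannot be told apart on these rows. The 10 snoRNA entries inside Gas5 and the 5 inside Snhg12 also lie wholly within exons of their hosts, which had rows of their own, and 0 of the 2 inside Snhg3 do. Among these entries, Snord80 in Gas5 and Snora16a in Snhg12 are each listed under separate identifiers at overlapping positions. How reads in bases shared by a host row and a snoRNA row were counted is not given in the sources used here.

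**Figure D3:**
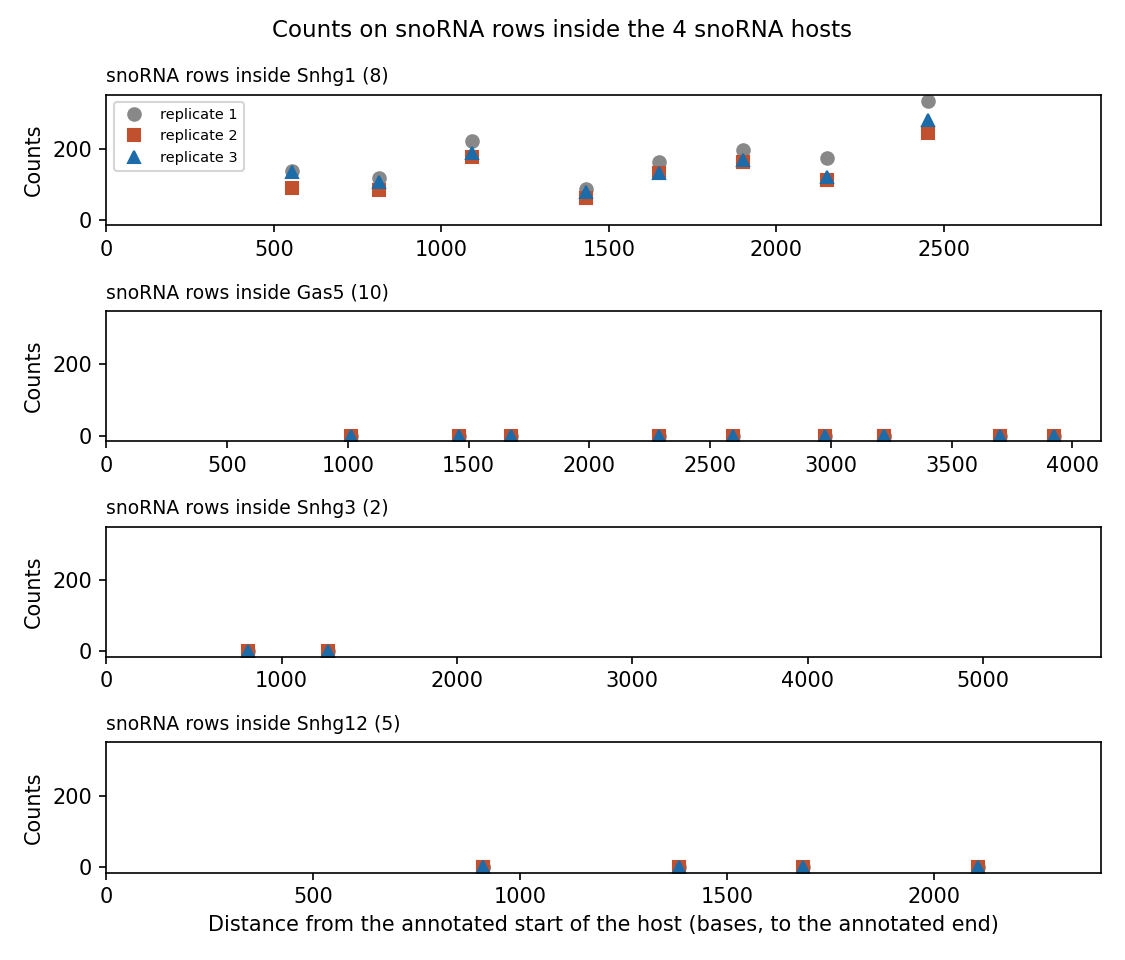
Counts on every snoRNA row inside the 4 snoRNA hosts in each of 3 libraries, against distance from the annotated start of the host in bases. The 8 rows in Snhg1, which had no host row, lie between 62 and 332 counts, and the 17 rows in Gas5, Snhg3 and Snhg12 lie at 0.

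Rows of this kind were counted, after these values were seen, in a list of 16 other snoRNA hosts. Together with the 4 members, 15 hosts had a row of their own and at least 1 annotated snoRNA on their strand, and 3 of their 242 snoRNAs were above the floor in every library. Of these 242, 208 belong to Snhg14, the long host in an imprinted region, and all of them were at 0. Of the hosts without a row, Snhg1 and Snhg10 held 9 snoRNAs, of which 8 were above the floor, all in Snhg1. Snhg4, Snhg7 and Snhg16 of the list also had no row and are not in this count. The single snoRNA of Snhg10 had at most 5 counts. Rows at 0 were the usual state of a snoRNA in these libraries. Of the 122 annotated snoRNAs that lie wholly in an exon of another gene with a row, 82.0% were at 0 in every library and 16.4% above the floor, and of the 1436 others 84.0% were at 0 and 5.29% above the floor. The difference between the rows inside Snhg1 and those inside the other members is given as a description, and what lies behind it was not tested.

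Gas5 was not the highest snoRNA host of those counted. Of the 12 other listed hosts with a row, the level per kilobase ranged from 0.0234 (Snhg14) to 46.3 ± 4.58 CPM (Snhg8). Zfas1 had 27.3 ± 0.477 and Snhg5 23.6 ± 1.43, close to the 27.1 ± 1.68 of Gas5. Genes for the proteins that assemble with snoRNAs covered a range that overlapped that of the hosts. The 4 of the box C/D particle ranged from 25.6 (Nop58) to 113 (Nop56) and the 4 of the box H/ACA particle from 38.9 to 203 (Nhp2) CPM per kilobase. All 8 listed genes of nonsense-mediated decay, the pathway known to degrade spliced snoRNA hosts, passed the floor, from 4.12 (Smg1) to 55.4 ± 1.69 CPM per kilobase for Upf1, its central helicase.

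The annotated starts of the hosts were read from RefSeq on GRCm38 because snoRNA hosts are known for pyrimidine tracts there. The windows cover 10 bases before to 20 after the start, on the strand of the gene, at chr1:161035156-161035185 for Gas5, chr4:132308668-132308697 for Snhg12, chr4:132353667-132353696 for Snhg3 and chr19:8723477-8723506 for Snhg1. Capitals mark a run of at least 5 pyrimidines that opens with C within 5 bases of the start.
Gas5, second start: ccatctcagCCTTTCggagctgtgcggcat
Snhg12: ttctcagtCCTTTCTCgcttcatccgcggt
Snhg3: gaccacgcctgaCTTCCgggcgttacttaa
Snhg1: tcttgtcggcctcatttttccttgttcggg
Gas5, Snhg12 and Snhg3 each held such a run, and it was not in these letters at the first listed start of Gas5 or at those of Snhg1, Malat1 and Tug1. Of all 32851 annotated starts, 18.3% had one. A run of pyrimidines that opens with T, such as tttttcctt in the Snhg1 letters, was not counted by this rule.

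Mir17hg, the microRNA host (ENSMUSG00000089726, chr14:115042879-115046727, forward strand), had 199, 138 and 124 counts, or 3.99, 2.79 and 2.78 CPM. Replicate 1 was highest and replicates 2 and 3 were almost equal, so the highest exceeded the lowest 1.43-fold. The 6 microRNA rows inside the host, those of the miR-17 and miR-20a group included, were at 0 counts in every library. Mature microRNAs carry no poly(A) tail. All 6 microRNA genes also lie wholly within annotated exons of Mir17hg, and how reads in such shared bases were counted is not given in the sources used here. What lies behind the rows at 0 was not tested. All 5 genes listed for microRNA processing passed the floor in every library. Drosha, which cuts the primary transcript, had 35.9 ± 0.398 CPM per kilobase, its partner Dgcr8 8.34 ± 0.341, the exporter Xpo5 23.9 ± 0.866, Dicer1, which makes the final cut, 4.25 ± 0.200 and the effector Ago2 15.0 ± 0.465, while Mir17hg itself had 0.901 ± 0.195.

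Hotair (ENSMUSG00000086903, chr15:102944062-102947730, reverse strand, 2006 exonic bases) had 1, 5 and 4 counts, above the floor of 3 counts in 2 of 3 libraries. Its pooled level was 0.0695 CPM with an exact 95% Poisson interval of 0.0333 to 0.128, which overlapped that of Snhg3 in CPM. The genes on either side of it were higher. Hoxc12 had 226, 220 and 159 counts and Hoxc11 40, 42 and 35, which gave 4.06 ± 0.517 and 0.402 ± 0.0167 CPM per kilobase against 0.0351 ± 0.0219 for Hotair. All 9 HoxC genes passed the floor in each library, from Hoxc11 as the lowest to Hoxc13 as the highest with 8.91 ± 0.274 CPM per kilobase.

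Of 9 other long non-coding RNAs of the Hox clusters, 5 were above the floor in every library. Hotairm1 of the HoxA cluster had 1.48 ± 0.186 CPM per kilobase, Hoxb5os 0.942 ± 0.173 and Hoxaas2 0.927 ± 0.175. Hottip, at the other end of the HoxA cluster, was at 0 counts in every library. Hotair at 0.0351 CPM per kilobase lay between Hoxaas3 (0.177 ± 0.0360) and Hoxd3os1 (0.0301 ± 0.0313) on the same scale, and its spread overlapped that of the latter.

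Among the 2622 annotated long non-coding RNA genes with a count, the level per kilobase placed Malat1 at the percentile 99.7, Gas5 at 99.5, Snhg12 at 99.0, Tug1 at 98.8 and Neat1 at 97.0. Pvt1 was at 93.4, Mir17hg at 90.8, Snhg3 at 69.3 and Hotair at 43.8. Against the 15950 protein-coding genes the same levels were lower, at 92.1 for Malat1, 86.2 for Gas5, 67.8 for Snhg12, 63.9 for Tug1 and 47.3 for Neat1. These percentiles use the union of exons only, and that of Neat1 depends on this length. Its level was 3.01 CPM per kilobase of exon but 31.0 per kilobase of its median transcript. The median long non-coding RNA gene had 0.0508 CPM per kilobase, so that Hotair was below it and the other 8 members with a row above, while by CPM alone Hotair was at the percentile 51.7. Against a background restricted to genes that reached 10 counts in each of the libraries, Neat1 moved to the percentile 89.3, Pvt1 to 76.1, Mir17hg to 67.4, Snhg3 to 14.0 and Hotair to 0.412, and Malat1, Gas5, Snhg12 and Tug1 stayed between 95.6 and 98.9. Snhg3 and Hotair reached 10 counts in no library and lie outside that background, so their low percentiles follow in part from the filter.

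**Figure D4:**
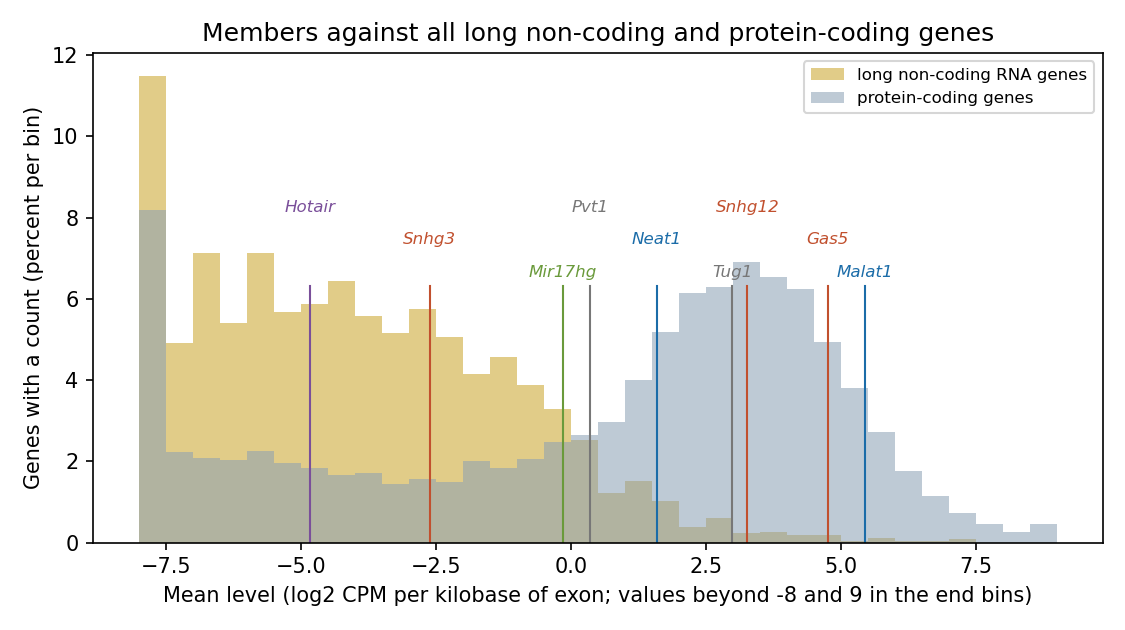
Share of genes in each bin of mean level (log2 of CPM per kilobase of exon), for 2622 long non-coding RNA genes and 15950 protein-coding genes with a count, with a line for each of the 9 members. Malat1, Gas5, Snhg12 and Tug1 lie above the median of 3.64 CPM per kilobase of the protein-coding genes, and Hotair lies below the median of the long non-coding RNA genes. Neat1 is placed at 3.01 CPM per kilobase of its union of exons, against 31.0 per kilobase of its median transcript.

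The nuclear-retained RNAs were compared with the snoRNA hosts as sums within each library. Malat1 and Neat1 together had 367, 326 and 410 CPM, and Gas5, Snhg3 and Snhg12 together had 125, 119 and 132 CPM. The sums did not overlap, and the ratio of the summed CPM was 2.93-fold (log2 ratio 1.55 ± 0.09), higher in 3 of 3 libraries. Per kilobase of exon the sums were 46.7 ± 5.56 and 36.9 ± 1.90, and their ratio fell to 1.26-fold (log2 ratio 0.33 ± 0.10), again in 3 of 3 libraries. The direction depended on the length taken. Per kilobase of the longest transcript the ratio turned, with 46.7 ± 5.56 for Malat1 and Neat1 against 55.2 for the hosts (0.843-fold, log2 ratio −0.25 ± 0.10), lower in 3 of 3 libraries. It was 1.09-fold per kilobase of unshared exonic bases and 2.84-fold per kilobase of the median transcript. The two-sided exact sign-flip permutation test gave p = 0.25 on each of these scales, the smallest that 3 libraries allow. Since Snhg1 is not in the host sum, the ratio is that of the measured hosts only. Malat1 (305 CPM) made up most of the first sum and Gas5 (102 CPM) most of the second. The ratio therefore mainly sets Malat1 against Gas5. Neat1 alone, with 62.6 CPM, was lower than Gas5 and higher than Snhg12 (23.2 CPM) and Snhg3 (0.161 CPM). Per kilobase of exon Neat1 (3.01 CPM) was lower than Gas5 (27.1) and Snhg12 (9.67) and higher than Snhg3 (0.164).

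The last comparison asked which members varied between the libraries by more than counting error. Of the 7 members that reached 10 counts in each library, 6 did so by a chi-square test with 2 degrees of freedom on TMM-scaled counts, Benjamini-Hochberg adjusted over 13814 genes. By the same test 43.8% of all genes and 20.9% of the 729 long non-coding RNA genes tested were called. All 7 members also reached 100 counts in each library, a filter at which 5718 of 11059 genes were called. Their share therefore cannot be set directly against 43.8% or 20.9%, which include genes with fewer counts. The median SD of the log2 level was 0.107 in the members, 0.244 in the long non-coding RNA genes tested and 0.0803 in all genes tested. The adjusted p of this chi-square test was 5.2e-91 for Malat1, 1.08e-13 for Neat1, 4.00e-08 for Tug1, 9.44e-08 for Gas5, 0.00263 for Mir17hg, 0.0234 for Snhg12 and 0.373 for Pvt1. The coefficient of variation of the CPM of Malat1 was 12.2% where counting error gives 0.828%, and that of Mir17hg was 21.7% against 8.10%. For Pvt1 the values were 5.41% and 4.83%. Without replicate 2, 3 members were called (Malat1, Snhg12 and Mir17hg) and 1746 genes in all, against 6046 with it, and the edgeR common coefficient of biological variation over all genes was 3.02% in place of 5.24%. Without replicate 1 the calls of Snhg12 and Mir17hg were lost, and without replicate 3 that of Snhg12.

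The listed genes of the same pathways were called as follows by this test, which called 43.8% of all genes. That share includes genes with few counts, where a change of the same size is harder to call. When the filter was raised to 100 counts per library, the test called 5718 of 11059 genes. The protein genes below all passed the raised filter, so their shares cannot be set directly against 43.8%. Of the protein genes, 8 of 11 for paraspeckles, 5 of 6 for speckles and Malat1 processing, 4 of 4 for box C/D and 3 of 4 for box H/ACA particles, 7 of 8 for nonsense-mediated decay and 4 of 5 for microRNA processing were called. Of the less abundant RNAs, 4 of 11 other snoRNA hosts, 3 of 9 HoxC genes and 1 of 5 other Hox-linked long non-coding RNAs were called. Against 50.2% of all genes, those lower in replicate 2 than in the others were 5 of 11 for paraspeckles, 4 of 6 for speckles, 3 of 4 for box C/D and 1 of 4 for box H/ACA particles, 6 of 8 for nonsense-mediated decay and 4 of 5 for microRNA processing. They were 8 of 11 for the other snoRNA hosts, 1 of 9 for HoxC and 1 of 5 for the other Hox-linked RNAs.

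Replicate 2 was lower than the mean log2 level of replicates 1 and 3 in 6 of these 7 members, all but Snhg12. The log2 difference was −0.26 for Neat1, −0.25 for Malat1, −0.25 for Mir17hg, −0.18 for Tug1, −0.15 for Gas5, −0.12 for Pvt1 and 0.04 for Snhg12. In Mir17hg replicate 2 (2.79 CPM) was not the lowest library. Replicate 3 (2.78 CPM) was about equal to it and replicate 1 (3.99 CPM) was high, so its difference does not set replicate 2 apart. Of all genes tested, 50.2% were lower in replicate 2, and of the long non-coding RNA genes 58.4%, with a median log2 difference of −0.07. The difference moved with the GC content of the exons, from a median of −0.26 in genes of 30% to 35% GC to 0.24 in those of 65% to 70%, and the 7 members lay between 40.1% (Mir17hg) and 47.5% (Snhg12). Genes within 1 percentage point of the GC content of each member had medians of −0.09 for Malat1, −0.03 for Neat1, −0.10 for Tug1 and −0.13 for Mir17hg. After those medians were taken off, −0.23 remained for Neat1, −0.15 for Malat1, −0.13 for Mir17hg and −0.08 for Tug1. With the GC content of the longest transcript, −0.02 remained for Tug1 and −0.05 for Gas5 (−0.07 with that of all exons). The part of GC content in the difference was not tested beyond these values.

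**Figure D5:**
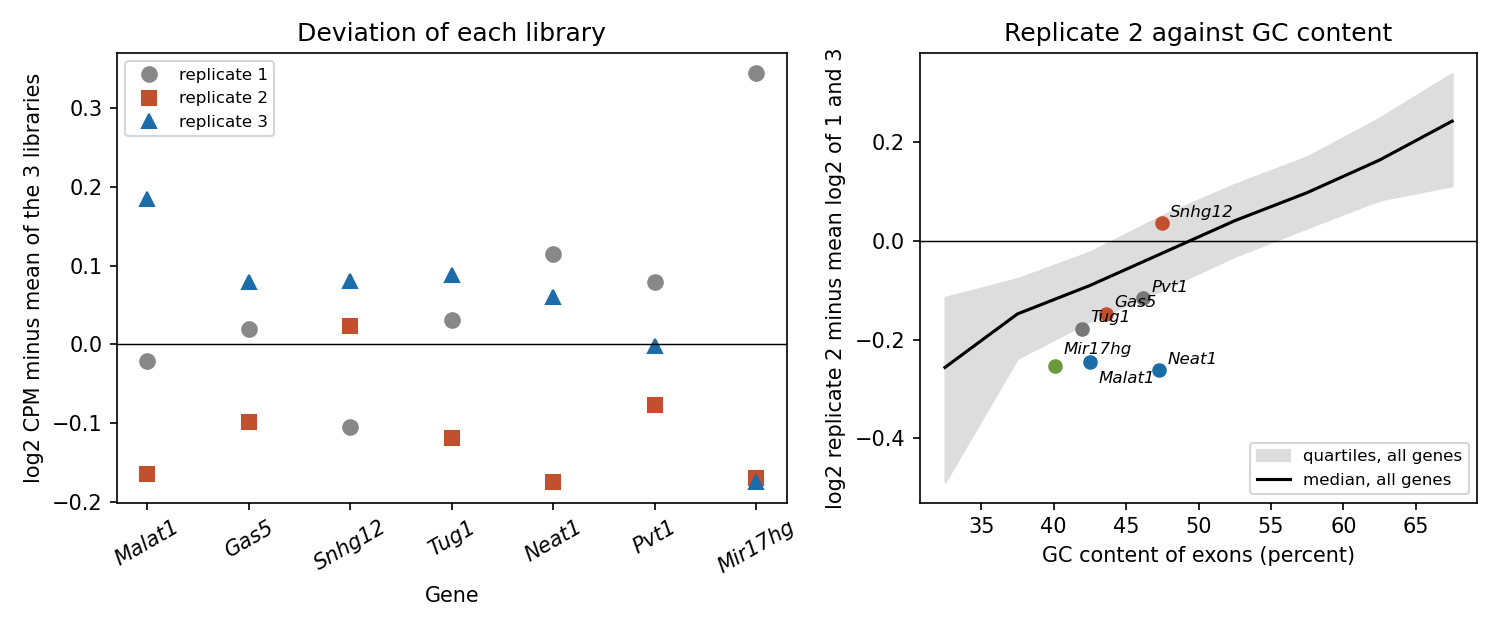
Left, the log2 CPM of 7 members in each library minus their mean over 3 libraries. Right, the log2 difference of replicate 2 from replicates 1 and 3 against the GC content of the exons in percent, with the median (line) and quartiles (band) of all genes tested; Neat1 lies lowest at −0.26 and Snhg12 alone lies above 0.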

How the data were processed

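Polyadenylated RNA of 3 KO-actin libraries was analysed. The authors deposited counts, whole numbers of reads per Ensembl gene with no normalization. The submitters' processing notes name Trimmomatic, FastQC, HISAT2 and HTSeq and the builds mm10 and GRCm38. Their versions, the annotation release, the strand setting and the handling of overlapping genes are not given in the sources used here.

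The 10 members and all gene lists were chosen with earlier results of these data known. Named genes were the members, small RNA genes inside them, the nearest protein-coding genes (1 of them is not reported here), the long non-coding RNA genes next in CPM, the 5 highest long non-coding RNA genes by CPM and per kilobase, and the listed genes. Genes were matched by identifier to GENCODE M21 on GRCm38 for 46091 of 46603 rows, and the 512 others held 0.0544% of the counts. Sequences came from GENCODE M21 and from RefSeq tables for GRCm38.p6, where Neat1, Pvt1 and Hotair had no start entry that was used. Library totals (49932446, 49587453 and 44383636 counts) were scaled by TMM in edgeR 4.0.16 on R 4.3.3, with DESeq2 1.42.0 size factors as an alternative. A floor of 3 counts and exact Poisson intervals cover counting error only.

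Variation was tested by a chi-square on the genes that reached 10 counts in each library, at an adjusted p of 0.05. The test was checked on counts of these 13814 genes simulated with counting error only, with 200 genes changed in replicate 2. It called 117 of them at a change of 1.2-fold and 157 at 1.5-fold, with 7 and 4 calls among the unchanged genes. The real libraries varied more, with a common coefficient of biological variation of 5.24%, so these calls do not describe the test on them. The sign-flip test was planned for 9 pairs of neighbours, of which 8 remained without Snhg1. Alternatives were other scalings, gene lengths, filters, backgrounds, thinned counts and each replicate left out. Python 3.11.15, numpy 2.4.6, pandas 2.3.3, scipy 1.17.1 and matplotlib 3.10.9 were used.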

Additional observations from a re-analysis of the deposited data

How the results depend on the processing

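No paired analysis was possible because all libraries belong to 1 group. The number of members that varied beyond counting error was 3 without replicate 2 and ranged from 3 to 5 when each replicate was left out, against 6 with all 3 libraries. It was 5 where edgeR tagwise dispersions above the common one were counted and 6 in the other alternatives tried. The number of genes called was 6046, and 1746 without replicate 2, and 152 where only long non-coding RNA genes were counted. Pairs of neighbours whose ranges did not overlap were 8 of 8 under the other scalings and with each replicate left out, and 6 to 7 under the other lengths, of which the median transcript length was added after the data were seen, as were the set of long non-coding RNA genes alone, the host sum without Snhg3 and the sums per kilobase of the other lengths. The log2 ratio of summed CPM of Malat1 and Neat1 over the hosts was 1.51 to 1.60 with each replicate left out, 1.83 with Tug1 added and 1.55 without Snhg3. Per kilobase it was 0.33 with the union of exons, 0.12 with unshared bases and 1.51 with the median transcript, and it reversed to −0.25 with the longest transcript, which is shorter than the union of exons in Gas5, Snhg3 and Snhg12 and equal to it in Malat1 and Neat1. Another scaling changed no member's mean CPM by more than 0.657%. Depth limits Snhg3 and Hotair, with 23 and 10 counts in all, and their order was within overlapping counting intervals in CPM.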

Other observations

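Long non-coding RNAs outside the 10 genes were also measured, from a list chosen with earlier results known. Of 12 further known long non-coding RNAs with a row, 9 were above the floor of 3 counts in every library. The highest was 2900097C17Rik, which the mouse nomenclature gives for the Norad RNA, with 8.48 ± 0.532 CPM per kilobase (SD, n = 3), near the 7.93 ± 0.576 of Tug1. Firre, an RNA of nuclear architecture, had 2.46 ± 0.122 CPM per kilobase. H19, an imprinted RNA of embryonic tissue, was at 0 counts in every library, and Meg3, the maternally expressed RNA of another imprinted cluster, had 0.142 ± 0.00672 CPM per kilobase.

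By level per kilobase, the highest gene annotated as a long non-coding RNA was 2410006H16Rik, whose mean CPM of 78.5 ± 1.89 was also the one next above that of Tug1. Gas5 stood between 1110038B12Rik (113 ± 1.72 CPM) and Ifi30 (81.3 ± 1.78 CPM), and Ifi30 is, like Cct6a, a gene known for a protein that this annotation release lists as a processed transcript.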
